A study of Mus musculus with 36 samples.

Results

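The lysosome genes here are 40 genes chosen by name, with earlier results of these data known, from the 56748 genes of the expression table. They encode 9 cysteine cathepsins (*Ctsb*, *Ctsc*, *Ctsf*, *Ctsh*, *Ctsk*, *Ctsl*, *Ctso*, *Ctss* and *Ctsz*), 3 other peptidases (*Ctsa*, *Ctsd* and *Tpp1*), 5 glycosidases (*Gaa*, *Gla*, *Glb1*, *Gusb* and *Hexa*) and 8 proteins of lipid handling (*Lipa*, *Asah1*, *Smpd1*, *Ppt1*, *Psap*, *Gm2a*, *Npc1* and *Npc2*). The others are 6 membrane proteins (*Lamp1*, *Lamp2*, *Cd63*, *Cd68*, *Laptm5* and *Mcoln1*), 6 subunits of the vacuolar proton pump or V-ATPase (*Atp6v1a*, *Atp6v1b2*, *Atp6v1h*, *Atp6v0a1*, *Atp6v0c* and *Atp6ap1*) and the 3 transcription factors *Tfeb*, *Tfe3* and *Mitf*. All 40 were found once in the table and passed the filter on low values in every comparison.

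RNA was sequenced from visceral white adipose tissue (visWAT, the epididymal depot) and liver of 18 male C57BL/6J mice, with 1 library per mouse and tissue. All mice carried loxP-flanked *Mlkl* alleles. MlklAdi-KO mice also carried a Cre transgene that is active in mature adipocytes, so other cells of visWAT and the liver keep the gene, and WT littermates had no Cre. From 16 weeks of age the mice received a normal chow diet (NCD, 4 mice per genotype) or a high-fat diet (HFD, 5 mice per genotype) for 16 weeks. Each library held 20875463 to 30322171 reads on genes, and a lysosome gene had between 9 reads (*Ctsk* in liver) and 210265 reads (*Ctsb*) in a library. Levels are given as FPKM, in which the count of a gene is divided by its length and by the size of its library, so that levels of different genes can be set side by side.

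*Adipoq*, the adipokine that marks adipocytes, was between 743 and 1995 FPKM in visWAT and at most 2.70 in liver. *Alb*, the albumin of hepatocytes, was between 25150 and 47070 FPKM in liver. *Alb* was at most 53.2 FPKM in visWAT outside 1 library, the HFD-fed MlklAdi-KO mouse 156, with 459.6. *Mlkl* itself was 4.58 to 6.28 FPKM in visWAT of HFD-fed WT mice and 2.33 to 2.72 in HFD-fed MlklAdi-KO mice. On NCD it was 5.11, 4.63, 2.29 and 3.91 in WT mice 165, 180, 182 and 183 and 1.96 to 2.49 in MlklAdi-KO mice, so the library labelled WT NCD visWAT mouse 182 lies at the level of the knockout. The visWAT library of WT NCD mouse 183 held 8 seminal vesicle genes at a summed 255900 FPKM. Their sum was 334.5 FPKM in WT NCD mouse 182, 85.05 in NCD-fed MlklAdi-KO mouse 197 and at most 4.54 in the other visWAT libraries. Counts that rest on WT NCD visWAT are therefore also given without these mice.

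Lysosomes are acidic organelles in which hydrolases degrade proteins, glycans, glycogen and lipids that arrive by endocytosis, phagocytosis and autophagy. The V-ATPase pumps protons into them, heavily glycosylated membrane proteins line their wall, and NPC1 and NPC2 hand cholesterol back to the cell. In obese adipose tissue, macrophages that surround dying adipocytes take up their lipid and are known for a large lysosome content. TFEB, TFE3 and MITF are related transcription factors that bind E-box motifs in promoters of lysosome genes.

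The promoters were searched for the E-box CACGTG and for its extended form TCACGTGA, which contains CACGTG. Both read the same on both strands. RefSeq windows from 250 bases before to 50 bases after a transcription start (table build GRCm38.p6) were found for 34 of the 40 genes. None was found for *Ctsb*, *Ctsh*, *Asah1*, *Npc1*, *Atp6v1b2* and *Atp6v1h*. CACGTG was present for 10 of the 34 genes (29.4%) and for 2187 of 27025 genes with a window (8.09%). TCACGTGA was present for 5 of the 34 genes (14.7%) and for 304 of all 27025 (1.12%). A match describes the letters and is not a measured binding site. A 30-base stretch is shown for each of the 10 genes because these are the sequences that TFEB-family factors are known to read. The motif is in capitals and each stretch runs 5′ to 3′ along the gene, with its coordinates in GRCm39 and the position of the first base of CACGTG, counted from the RefSeq start at 1 with no position 0. In 4 cases (*Ctsf*, *Gaa*, *Gla* and *Glb1*) the stretch lies outside the gene as bounded in the deposited table, and in 6 it overlaps it.
*Atp6v1a* (chr16:43959736-43959765, minus strand, position -131): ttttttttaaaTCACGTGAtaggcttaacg
*Ctsa* (chr2:164675686-164675715, plus strand, position 6): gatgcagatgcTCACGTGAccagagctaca
*Ctsd* (chr7:141941645-141941674, minus strand, position -98): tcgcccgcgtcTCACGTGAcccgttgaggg
*Gla* (chrX:133501931-133501960, minus strand, position -194): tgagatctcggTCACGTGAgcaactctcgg
*Mcoln1* (chr8:3550462-3550491, plus strand, position -45): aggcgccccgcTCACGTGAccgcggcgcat
*Ctsf* (chr19:4905102-4905131, plus strand, position -79): caccccgtggtcCACGTGcctcgcgtaaat
*Ctsl* (chr13:64518553-64518582, minus strand, position -236): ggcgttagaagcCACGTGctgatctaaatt
*Gaa* (chr11:119158637-119158666, plus strand, position -140): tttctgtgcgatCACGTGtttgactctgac
*Glb1* (chr9:114230086-114230115, plus strand, position -48): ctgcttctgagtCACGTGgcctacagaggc
*Lamp1* (chr8:13209134-13209163, plus strand, position -15): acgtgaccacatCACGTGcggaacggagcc

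In visWAT of WT mice, 35 of the 40 lysosome genes rose on HFD and none fell (limma on log2(FPKM + 1), Benjamini-Hochberg adjusted p below 0.05). Over all 14161 genes tested, 21.9% rose and 15.8% fell. The median log2 fold change was 1.05 over the lysosome genes and -0.01 over all genes tested. All 5 glycosidases (median 2.01), all 6 membrane proteins (1.10), all 3 other peptidases (1.33) and all 3 transcription factors (0.94) rose, together with 6 of 9 cysteine cathepsins (1.73), 7 of 8 lipid-handling genes (1.002) and 5 of 6 V-ATPase subunits (1.11). Those that did not pass were *Ctsc* (-0.21), *Ctsf* (0.29), *Ctso* (-0.15), *Smpd1* (0.11) and *Atp6v1h* (0.14). The spread of effects was wide, from -0.21 for *Ctsc* to 4.65 for *Cd68*.

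**Figure D1:**
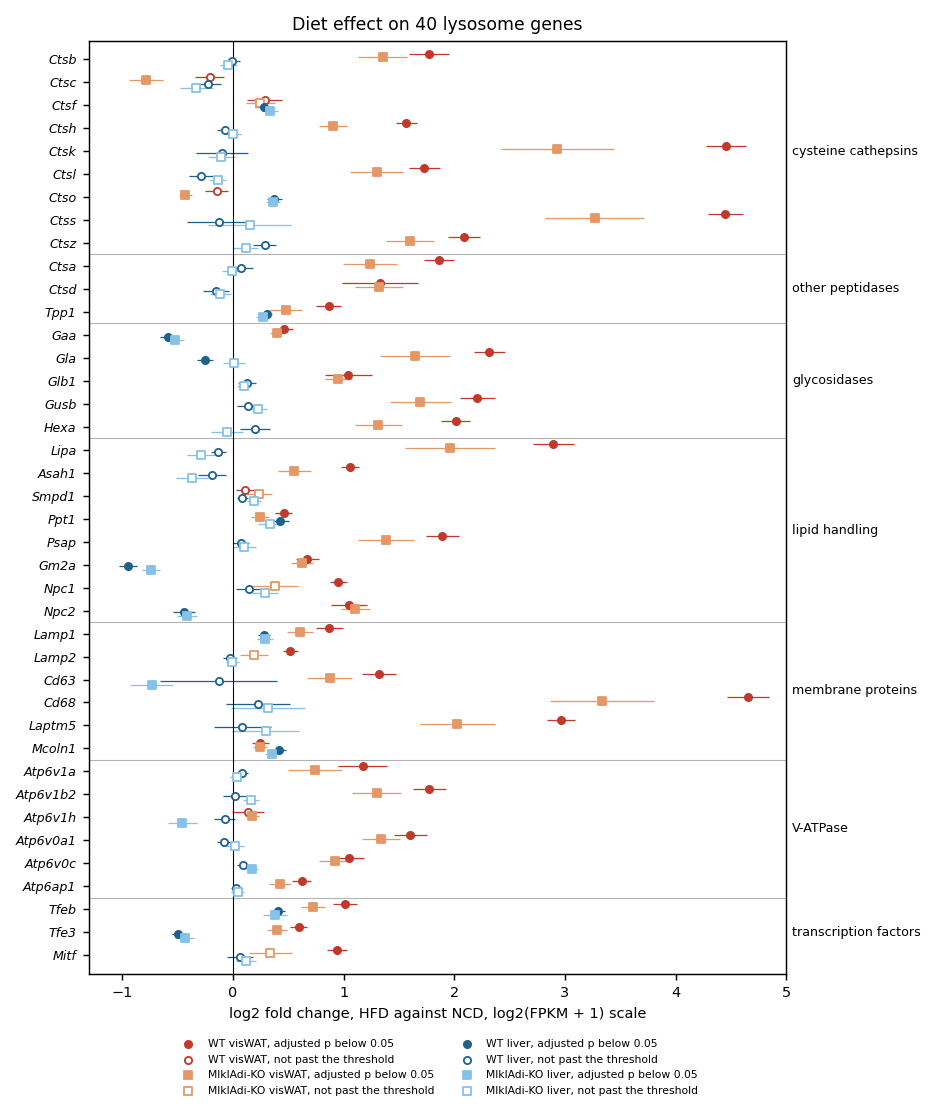
Log2 fold change of the 40 lysosome genes, HFD against NCD, on the log2(FPKM + 1) scale in WT and MlklAdi-KO visWAT and liver, with bars of 1 standard error and filled symbols for adjusted p below 0.05 (limma). In WT visWAT 35 of 40 symbols are filled, all to the right of 0 and reaching 4.65 (*Cd68*), while the liver values lie between -0.95 (*Gm2a*) and 0.42 (*Ppt1*) in WT mice.

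*Ctsk*, the collagen-degrading cathepsin of osteoclasts, was at 9.65, 6.19, 5.37 and 6.30 FPKM in the NCD-fed WT mice 165, 180, 182 and 183. On HFD it was at 139.9, 219.4, 190.7, 148.7 and 156.6 FPKM in mice 154, 155, 161, 162 and 164. The groups were far apart, with a log2 fold change of 4.46 ± 0.18 (SE, limma adjusted p = 2.83e-07). *Ctss*, which cleaves the invariant chain in antigen-presenting cells, lies next to *Ctsk* on chromosome 3 (*Ctsk* from 95406567 to 95416673, *Ctss* from 95434097 to 95463714, both on the plus strand). It was at 23.2, 17.2, 17.5 and 21.1 FPKM on NCD and at 341.8, 555.7, 506.8, 447 and 425.6 FPKM on HFD. Every HFD-fed mouse was above every NCD-fed mouse, and the log2 fold change was 4.45 ± 0.16 (limma, adjusted p = 2.23e-07). The broadly expressed *Ctsb* (1.77), *Ctsl* (1.73), *Ctsh* (1.57) and *Ctsz* (2.09) rose by smaller factors.

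*Ctsa*, the carboxypeptidase that protects lysosomal β-galactosidase and neuraminidase, was at 26.6, 22.3, 21.3 and 24.2 FPKM on NCD and at 70.0, 104.9, 103.3, 79.6 and 87.5 FPKM on HFD. These groups did not overlap (1.86 ± 0.13, limma adjusted p = 6.91e-06). *Ctsd*, the main aspartic protease of lysosomes, was at 257.4, 326.6, 802.5 and 232.7 FPKM on NCD and at 697.7, 1088, 1005, 837.4 and 873.7 FPKM on HFD. Here the groups overlapped, because NCD-fed mouse 182, the library with low *Mlkl*, was above the lowest HFD-fed mouse. The log2 fold change of *Ctsd* was 1.33 ± 0.34 (limma, adjusted p = 0.0133) over all mice and 1.72 ± 0.17 without mouse 182 (adjusted p = 0.000115). *Tpp1*, a tripeptidyl peptidase, rose by 0.87.

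*Gla*, the α-galactosidase that removes galactose from globosides, was at 1.83, 1.87, 1.91 and 1.42 FPKM on NCD and at 9.45, 15.3, 15.7, 12.03 and 12.1 FPKM on HFD. The lowest HFD-fed mouse was far above the highest NCD-fed mouse, with a log2 fold change of 2.32 ± 0.14 (limma, adjusted p = 2.3e-06). *Gusb*, the β-glucuronidase, was at 11.8, 10.7, 11.3 and 17.6 FPKM on NCD and at 49.8, 70.5, 69.5, 58.8 and 62.5 FPKM on HFD. Mouse 183, the library with seminal vesicle transcripts, was the highest of its group and still below all HFD-fed mice (2.21 ± 0.16, limma adjusted p = 6.37e-06). *Hexa*, which degrades ganglioside GM2, rose by 2.01 and the β-galactosidase *Glb1* by 1.04, while *Gaa*, which degrades glycogen, rose by 0.46, the smallest change among the glycosidases.

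*Lipa*, the acid lipase that frees cholesterol and fatty acids from lipid droplets and lipoproteins, was at 6.92, 6.60, 7.93 and 4.17 FPKM on NCD. On HFD it was at 39.6, 60.9, 63.6, 51.2 and 53.3 FPKM. With no overlap between diets, its log2 fold change was 2.90 ± 0.18 (limma, adjusted p = 2.97e-06). *Psap*, the precursor of the saposins that activate sphingolipid hydrolases, was at 480.0, 450.1, 496.9 and 360.2 FPKM on NCD and at 1372, 1826, 1858, 1618 and 1620 FPKM on HFD. It had the highest level of the 40 genes in WT visWAT on both diets and rose by 1.89 ± 0.15 (limma, adjusted p = 1.2e-05). The acid ceramidase *Asah1* (1.06), the cholesterol carriers *Npc2* (1.05) and *Npc1* (0.95), the GM2 activator *Gm2a* (0.67) and the thioesterase *Ppt1* (0.46) also rose, and the acid sphingomyelinase *Smpd1* did not pass (0.11, adjusted p = 0.33).

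*Cd68*, a lysosomal glycoprotein known from macrophages, showed the largest change of the 40 genes. It was at 12.7, 10.1, 15.8 and 10.7 FPKM on NCD and at 244.3, 427.5, 398.3, 293.9 and 316.9 FPKM on HFD. All HFD-fed mice were far above the NCD range (4.65 ± 0.19, limma adjusted p = 2.83e-07). *Laptm5*, a lysosomal membrane protein of blood-derived cells, was at 13.9, 11.5, 11.7 and 12.2 FPKM on NCD and at 79.8, 120.6, 119.7, 98.3 and 101.3 FPKM on HFD. This separation was again complete, at 2.97 ± 0.13 (limma, adjusted p = 4.15e-07). The tetraspanin *Cd63* (1.32), the structural proteins *Lamp1* (0.87) and *Lamp2* (0.52) and the calcium channel *Mcoln1* (0.25) rose less, and *Mcoln1* did not pass with edgeR (adjusted p = 0.0667) or DESeq2 (0.0582) on reads recovered from the FPKM. It was also lost when NCD-fed mouse 165, 180 or 183 or HFD-fed mouse 154, 155, 161 or 164 was left out.

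*Atp6v1b2*, a subunit of the ATP-hydrolysing part of the pump, was at 16.1, 15.2, 20.4 and 12.9 FPKM on NCD and at 44.7, 65.4, 64.7, 55.3 and 56.6 FPKM on HFD. The diets did not overlap (1.77 ± 0.15, limma adjusted p = 1.73e-05). *Atp6v0a1*, of the membrane part, was at 16.4, 14.1, 21.5 and 21.3 FPKM on NCD and at 48.3, 66.2, 64.1, 51.5 and 56.1 FPKM on HFD. It rose by 1.60 ± 0.15 with no overlap (limma, adjusted p = 3.3e-05). *Atp6v1a* (1.17), *Atp6v0c* (1.05) and *Atp6ap1* (0.62) also rose. *Atp6v1a* and *Atp6v1h* were highest among NCD-fed mice in mouse 182 (23.8 and 11.7 FPKM). Without it *Atp6v1a* rose by 1.43 and *Atp6v1h* by 0.30 (limma, adjusted p = 0.0153).

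The transcription factors were expressed at low levels. *Tfeb*, the best known regulator of lysosome formation, was at 2.88, 2.81, 2.15 and 2.60 FPKM on NCD and at 5.01, 7.34, 7.12, 5.82 and 6.19 FPKM on HFD (1.01 ± 0.11, limma adjusted p = 8.87e-05). *Mitf*, known from melanocytes and osteoclasts, was at 1.73, 1.42, 1.45 and 1.23 FPKM on NCD and at 3.24, 3.69, 4.46, 3.30 and 3.96 FPKM on HFD (0.94 ± 0.09, limma adjusted p = 4.85e-05). *Tfe3* was at 3.83, 3.97, 4.43 and 3.67 FPKM on NCD and at 5.85, 7.26, 6.94, 6.03 and 6.53 FPKM on HFD (0.60 ± 0.08, limma adjusted p = 0.00026). None of the 3 overlapped between diets, which describes these genes only, as the share of all genes without overlap is not given here. On the promoter letters shown above, *Atp6v1a*, *Ctsa*, *Ctsd*, *Gla* and *Mcoln1* hold TCACGTGA, and *Ctsf*, *Ctsl*, *Gaa*, *Glb1* and *Lamp1* hold CACGTG alone. *Ctsk*, *Ctss*, *Cd68*, *Laptm5* and *Lipa*, the genes with the largest rises, hold no CACGTG in their windows. A relation between motif and diet effect was not tested.

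Without NCD-fed mice 182 and 183, 36 of the 40 genes rose and 2 fell, *Ctsc* (-0.44, limma adjusted p = 0.00511) and *Ctso* (-0.35, adjusted p = 0.00149), and the median was 1.18. In that fit 3901 of all genes rose and 3394 fell, against 3108 and 2239 with all mice. On a TPM scale, on which every library sums to the same total, the median of all genes shifted by 0.43 and the share of called genes that rose went from 58.1% to 94.4%. There the lysosome genes had a median of 1.61, and *Ctsc* and *Ctso*, not called on either scale, changed sign to 0.25 and 0.30.

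Macrophage transcripts moved with the diet in the same libraries. The summed level of 10 macrophage markers that are no members of the list was 339.8 to 448 FPKM in NCD-fed and 2225 to 3049 FPKM in HFD-fed WT visWAT, and 9 of the 10 rose (median log2 fold change 2.35). Of 6 markers of lipid-associated macrophages 5 rose (median 4.84), with sums of 47.4 to 232.2 FPKM on NCD and 398.6 to 692.8 on HFD. The 232.2 FPKM was in mouse 182, and the next highest NCD-fed mouse had 87.2. None of these 16 markers was listed at 0 in a visWAT library. Of 10 mature adipocyte markers 7 fell and 1 rose (median -0.79), and all 6 fibroblast markers rose (median 1.44). Of the other marker lists, 2 of 5 endothelial and 1 of 4 hepatocyte markers fell, 2 of 4 Kupffer cell markers rose, and none of 3 lymphocyte and 6 seminal vesicle markers passed. Their part in the rise of the lysosome genes was not tested, and in RNA of whole tissue fewer cells of a type and less RNA per cell cannot be told apart.

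In visWAT of MlklAdi-KO mice, 33 of the 40 genes rose on HFD and 2 fell, *Ctsc* (-0.79) and *Ctso* (-0.43). Over the 14026 genes tested, 23.3% rose and 20.3% fell. The median log2 fold change was 0.89 over the lysosome genes and 0.01 over all genes. Both genotypes shared 32 rising genes, and the share of all genes that rose in both is not given here. *Lamp2* (0.52 in WT and 0.19 in MlklAdi-KO visWAT), *Npc1* (0.95 and 0.38) and *Mitf* (0.94 and 0.34) passed in WT mice alone. A call in WT mice alone is not a tested difference between genotypes. The interaction test further on passed for none of the 40 genes. *Ctsf* (0.25 in MlklAdi-KO visWAT) and *Smpd1* (0.24) did not pass in either genotype. All 6 V-ATPase subunits passed, with a median of 0.83, but *Atp6v1h* (0.17, limma adjusted p = 0.048) did not with edgeR, and without 1 mouse at a time it was kept only when HFD-fed mouse 156 was left out. *Atp6v1a* (0.74) was lost without NCD-fed mouse 166, 179, 197 or 199 or HFD-fed mouse 151, 152 or 153, and *Ppt1* (0.24) without any of these but 199. *Tpp1* (0.48) was lost without mouse 166 or 179 and *Mcoln1* (0.24) without mouse 197.

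Macrophage transcripts rose in MlklAdi-KO visWAT as well. Of 10 macrophage markers 8 rose and 1 fell (median 1.42), with sums of 411.8 to 678.4 FPKM on NCD and 1046 to 2790 FPKM on HFD. All 6 markers of lipid-associated macrophages rose (median 3.45), from sums of 50.1 to 55.2 FPKM to sums of 160.7 to 599.3 FPKM. Of 10 mature adipocyte markers 5 fell and 2 rose (median -0.52), and 3 of 6 fibroblast markers rose. Their part in the rise of the lysosome genes was not tested here either.

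*Ctsc*, the dipeptidyl peptidase that activates granule proteases of leukocytes, was at 29.4, 24.2, 21.4 and 19.1 FPKM in the NCD-fed MlklAdi-KO mice 166, 179, 197 and 199. On HFD it was at 10.4, 14.95, 16.5, 11.0 and 13.3 FPKM in mice 151, 152, 153, 156 and 157. These ranges did not overlap (limma, adjusted p = 0.00396). *Ctsc* and *Ctso* thus went against the direction of *Ctsk* (2.93 ± 0.51), *Ctss* (3.27 ± 0.45), *Ctsz* (1.60) and *Ctsb* (1.35) of the same family.

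*Cd68* was at 13.7, 13.4, 24.4 and 19.5 FPKM in NCD-fed MlklAdi-KO visWAT and at 223.5, 322, 370.0, 96.8 and 78.6 FPKM on HFD. Mice 156 and 157 were lowest on HFD and still above all NCD-fed mice, so the rise was 3.33 ± 0.47 (limma, adjusted p = 0.000901). *Lipa* was at 6.27, 6.72, 7.82 and 6.94 FPKM on NCD and at 31.9, 54.8, 57.3, 16.7 and 13.7 FPKM on HFD (1.96 ± 0.41, limma adjusted p = 0.00493). *Tfeb* was at 2.97, 2.92, 2.74 and 2.59 FPKM on NCD and at 5.80, 5.84, 6.29, 4.68 and 4.01 FPKM on HFD (0.72 ± 0.11, limma adjusted p = 0.00115). All 3 genes separated the diets completely. *Tfe3* was at 4.19 to 4.24 FPKM on NCD and at 5.59, 6.79, 7.03, 4.86 and 5.35 on HFD (0.40 ± 0.09, limma adjusted p = 0.0085). *Mitf* was at 1.55, 1.63, 1.88 and 1.83 FPKM on NCD and at 2.38, 3.54, 3.72, 1.76 and 1.40 on HFD. Its groups overlapped through mice 156 and 157, and it did not pass (0.34 ± 0.20, limma adjusted p = 0.19).

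**Figure D2:**
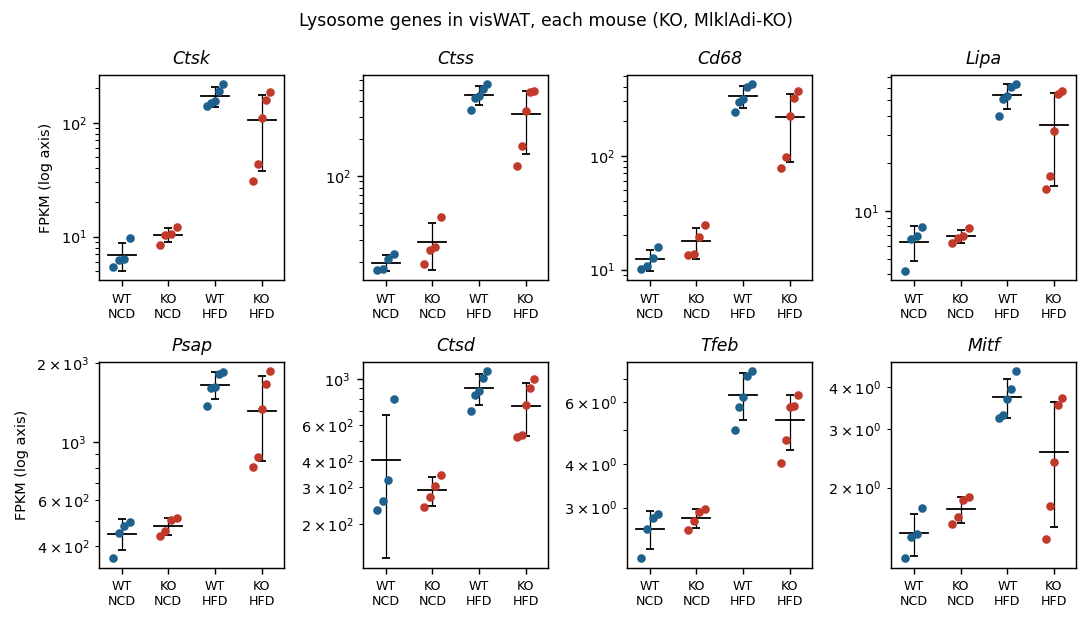
FPKM in visWAT (log axes) for 8 lysosome genes, 1 point per mouse, in WT and MlklAdi-KO mice on NCD (4 mice each) and HFD (5 mice each), with the group mean as a line and bars of 1 SD. All HFD-fed WT mice lie above the NCD-fed WT mice except for *Ctsd*, where 1 NCD-fed mouse is at 802.5, and 2 HFD-fed MlklAdi-KO mice lie far below the others in *Ctsk* (43.8 and 30.7) and *Cd68* (96.8 and 78.6).

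Between genotypes on HFD, none of the 40 genes passed in visWAT with limma, edgeR or DESeq2, and 3 of 13963 genes did with limma (0.0215%). At an unadjusted p below 0.05 there were 8 of 40, where 21.5% of all genes were. With 1 mouse left out this count ran from 2 (without mouse 156 or 157, where 12.1% and 11.4% of all genes were) to 24 (without mouse 153, 32.4%). The values of 36 of the 40 genes were below 0 in MlklAdi-KO mice (median -0.30 on the log2 scale, against -0.00 over all genes). The largest differences, none past the threshold, were *Ctsk* (-0.97 ± 0.46), *Cd68* (-0.85 ± 0.42), *Lipa* (-0.81 ± 0.38) and *Ctss* (-0.70 ± 0.37). The smallest adjusted p was 0.221.

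*Ctsh*, an aminopeptidase of the cathepsin family, had the smallest unadjusted p. It was at 27.6, 32.6, 30.1, 28.3 and 25.9 FPKM in WT and at 21.1, 25.3, 26.4, 18.9 and 18.5 FPKM in MlklAdi-KO mice. Only mouse 153 reached into the WT range (-0.38 ± 0.11, limma adjusted p = 0.221, two-sided exact permutation test p = 0.0159 against a smallest possible 0.00794). *Tpp1* was at 32.1, 36.6, 36.8, 34.1 and 36.2 FPKM in WT and at 25.9, 34.2, 34.0, 22.8 and 22.2 FPKM in MlklAdi-KO mice, with mice 152 and 153 in the WT range (-0.35 ± 0.13, limma adjusted p = 0.221, exact permutation p = 0.0476). *Npc1*, the cholesterol exporter of the lysosome membrane, was at 5.10, 5.21, 5.42, 4.92 and 5.29 FPKM in WT and at 2.75, 5.39, 4.93, 2.43 and 2.27 in MlklAdi-KO mice. Its 5 WT mice were close together, while the knockout fell into 3 mice under 3 FPKM and 2 at the WT level (-0.50 ± 0.18, limma adjusted p = 0.221, exact permutation p = 0.0794).

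The transcription factors *Tfeb* (-0.21 ± 0.12, limma adjusted p = 0.305), *Tfe3* (-0.13 ± 0.10; 0.414) and *Mitf* (-0.45 ± 0.18; 0.221) also had lower means in HFD-fed MlklAdi-KO visWAT without passing. Their exact permutation p-values were 0.143, 0.262 and 0.0794.

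The HFD-fed MlklAdi-KO mice differed strongly among themselves. In mice 156 and 157, 35 and 34 of the 40 genes were below the range of the 5 WT mice, with median log2 differences from the WT mean of -0.66 and -0.67. Mouse 151 had 26 genes below that range (median -0.27). Mice 152 and 153 had 35 and 36 genes within it (-0.01 and 0.06). Among WT mice, each set against the other 4, the medians ran from -0.25 in mouse 154 to 0.21 in mouse 155. WT mouse 154 had 30 genes below the range of the other WT mice. Knockout mice were set against a range of 5 mice and WT mice against one of 4, so their counts are not alike. The share of all genes outside these ranges is not given here, so the counts are not read as a result about the lysosome genes.

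**Figure D3:**
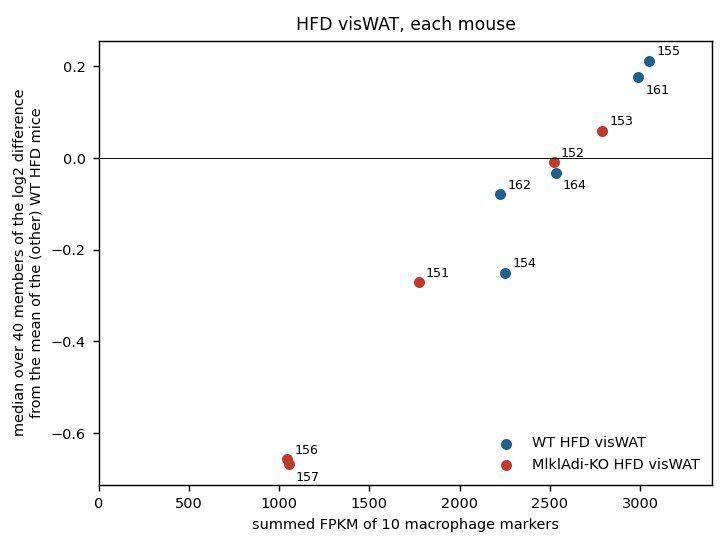
Median log2 difference of the 40 lysosome genes from the mean of the WT mice (for a WT mouse, of the other 4) against the summed FPKM of 10 macrophage markers, 1 point per HFD-fed mouse in visWAT. MlklAdi-KO mice 156 and 157 lie apart at -0.66 and -0.67 with 1046 and 1053 FPKM of macrophage markers, and mice 152 and 153 lie among the WT mice.

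The same 3 knockout mice had the lowest macrophage marker sums. These were 1046 and 1053 FPKM in mice 156 and 157, 1772 in mouse 151, 2520 and 2790 in mice 152 and 153 and 2225 to 3049 in WT mice. Sums of mature adipocyte markers went the other way, at 6541 and 7197 FPKM in mice 156 and 157 and 3436 to 4147 FPKM in WT mice. Mouse 156 was also the library with *Alb*. Whether the lysosome genes differed apart from these cell markers was not tested.

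On NCD, none of the 40 genes passed between genotypes in visWAT with limma, edgeR or DESeq2, and none of 14063 genes did with limma (0.0%). Of the 40, 3 had an unadjusted p below 0.05, where 3.75% of all genes did, and 32 had a value above 0, with a median of 0.09 (all genes 0.01). With edgeR 24 and with DESeq2 23 were above 0. Without mice 182 and 183, 1 had an unadjusted p below 0.05 (*Asah1*; 4.45% of all genes) and 34 were above 0, with a median of 0.07. *Ctsk* was at 9.65, 6.19, 5.37 and 6.30 FPKM in WT and at 8.51, 10.5, 12.1 and 10.4 FPKM in MlklAdi-KO mice, and WT mouse 165 overlapped (0.55 ± 0.17, limma adjusted p = 0.916, exact permutation p = 0.0571). *Hexa* was at 49.8, 46.3, 46.6 and 41.7 FPKM in WT and at 51.7, 50.3, 61.1 and 57.9 FPKM in MlklAdi-KO mice without overlap (0.25 ± 0.10, adjusted p = 0.916, exact permutation p = 0.0286, the smallest this design allows). *Ctsh* was at 9.58, 8.62, 10.4 and 7.87 FPKM in WT and at 9.64, 11.5, 13.3 and 10.6 FPKM in MlklAdi-KO mice, with WT mouse 182 in the knockout range (0.28 ± 0.11, adjusted p = 0.916, exact permutation p = 0.0571). *Tfeb* (0.08), *Tfe3* (0.07) and *Mitf* (0.15) had adjusted p-values of 0.916 with limma, and without mice 182 and 183 *Tfeb* changed sign (-0.02), while *Ctsk* was 0.37, *Ctsh* 0.27 and *Hexa* 0.19. On the TPM scale the median of all genes in this comparison shifted by 0.34, and all 40 were above 0. The summed macrophage markers were 411.8 to 678.4 FPKM in NCD-fed MlklAdi-KO and 339.8 to 448 FPKM in WT visWAT, and none of the 10 passed (median 0.38). Their part in the values above was not tested.

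The diet effect itself was then compared between genotypes by an interaction term over all 18 visWAT libraries. None of the 40 genes passed with limma, edgeR or DESeq2, and none of 14136 genes did with limma (0.0%). At an unadjusted p below 0.05 there were 13 of 40, where 13.2% of all genes were, and 37 of 40 interaction values were below 0 (median -0.42, all genes -0.01), on a scale where a negative value is a smaller rise in MlklAdi-KO mice. On the TPM scale the median of all genes shifted by -0.44, to -0.45, and the lysosome genes had a median of -0.92 with all 40 below 0. With edgeR and DESeq2 32 were below 0 (median -0.31, all genes 0.05). Without mice 182 and 183, 37 were below 0 (median -0.41) and 4 had an unadjusted p below 0.05, against 9.54% of all genes. With 1 mouse left out the latter count ran from 9 (without mouse 197 or 156) to 23 (without mouse 153). The share of all genes in these fits is not given here, so this range is not read as a result about the lysosome genes. With all mice the interaction values reached -1.53 ± 0.57 for *Ctsk* (limma, adjusted p = 0.346), -1.32 ± 0.54 for *Cd68* (0.354) and -1.18 ± 0.50 for *Ctss* (0.357). The smallest adjusted p was 0.314, for *Ctsh* (-0.66 ± 0.16). The 2 diet comparisons and the 2 genotype comparisons use the same 4 groups of mice, so they are no independent support of each other.

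In liver, the diet effect went both ways. In WT mice 7 of the 40 genes rose (*Ctsf*, *Ctso*, *Tpp1*, *Ppt1*, *Lamp1*, *Mcoln1* and *Tfeb*) and 5 fell (*Gaa*, *Gla*, *Gm2a*, *Npc2* and *Tfe3*), where 13.2% of the 13330 genes tested rose and 12.1% fell. The counts are therefore near the background. The median log2 fold change was 0.05, and -0.00 over all genes. None of the 6 V-ATPase subunits passed.

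Cell type markers also moved with the diet in WT liver. Of 6 mature adipocyte markers 5 rose (median 1.16), and the sum of all 10 on the list was 21.7 to 37.7 FPKM on NCD and 105.5 to 148.9 FPKM on HFD. Of 8 hepatocyte markers 4 fell and 1 rose (median -0.29). Of 5 markers of lipid-associated macrophages 2 fell (median -0.64), with sums of 97.7 to 241.4 FPKM on NCD and 26.9 to 47.8 FPKM on HFD. Of 9 macrophage markers 1 rose, of 5 Kupffer cell markers 2 rose, and none of the tested fibroblast, endothelial and lymphocyte markers passed. In MlklAdi-KO liver 2 of 6 mature adipocyte markers rose, and 4 of 8 hepatocyte and 2 of 3 lipid-associated macrophage markers fell. Their part in the liver values was not tested.

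*Gm2a*, the cofactor that presents ganglioside GM2 for degradation, changed most. It was at 37.4, 45.3, 51.95 and 46.7 FPKM in liver of NCD-fed WT mice 165, 180, 182 and 183 and at 22.1, 22.1, 23.5, 23.5 and 22.9 FPKM on HFD. The HFD-fed mice lay close together, below all NCD-fed mice (-0.95 ± 0.08, limma adjusted p = 0.000102). *Gaa* was at 43.6, 44.0, 34.5 and 44.5 FPKM on NCD and at 28.7, 25.7, 26.95, 27.1 and 28.1 FPKM on HFD, again without overlap (-0.59 ± 0.08, limma adjusted p = 0.00084). *Npc2*, the soluble cholesterol carrier, was at 18.7, 17.6, 24.6 and 17.8 FPKM on NCD and at 15.1, 13.2, 13.3, 14.9 and 14.1 FPKM on HFD (-0.44 ± 0.10, limma adjusted p = 0.0101). Its NCD mean was raised by mouse 182, and the remaining mice were still above all HFD-fed mice.

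*Ppt1*, which removes palmitate from proteins, had the largest rise in WT liver. It was at 7.88, 6.76, 9.47 and 7.0 FPKM on NCD and at 10.2, 11.1, 10.5, 11.0 and 10.6 FPKM on HFD (0.42 ± 0.08, limma adjusted p = 0.00651). *Tfe3* was at 4.31, 4.95, 5.002 and 4.48 FPKM on NCD and at 3.33, 2.91, 3.01, 2.89 and 3.01 FPKM on HFD (-0.50 ± 0.06, limma adjusted p = 0.000459). *Tfeb* was at 1.76, 2.195, 1.77 and 2.03 FPKM on NCD and at 2.89, 2.78, 2.81, 2.98 and 2.98 FPKM on HFD (0.41 ± 0.06, limma adjusted p = 0.00146). So the diets did not overlap for any of these 3 genes, and *Tfeb* and *Tfe3*, close relatives, went in opposite directions. *Mitf* was at 0.47 to 0.86 FPKM on NCD and 0.48 to 1.09 on HFD, without a change that passed (0.06 ± 0.12, limma adjusted p = 0.75).

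*Mcoln1* (0.42), *Ctso* (0.37), *Tpp1* (0.31), *Lamp1* (0.28) and *Ctsf* (0.28) made up the other rises and *Gla* (-0.25) the other fall. *Ctsf* (limma, adjusted p = 0.0249) was lost without mouse 165, 183, 154, 161 or 162, and *Gla* (0.0384) without mouse 180, 183, 154, 155, 161, 162 or 164. *Lipa* (-0.13), *Psap* (0.07), *Ctsb* (-0.01) and *Lamp2* (-0.03), all abundant in liver, did not pass.

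The genes with the largest rise in visWAT did not pass in WT liver. *Ctss* was at 16.4, 12.1, 39.6 and 15.3 FPKM on NCD and at 16.8, 17.8, 15.3, 14.8 and 21.4 FPKM on HFD (-0.12 ± 0.29, limma adjusted p = 0.794). *Cd68* was at 3.13, 2.93, 10.4 and 3.50 FPKM on NCD and at 5.92, 5.26, 4.19, 5.29 and 5.997 FPKM on HFD (0.23 ± 0.29, limma adjusted p = 0.607). In both genes, NCD-fed mouse 182 was far above all other WT mice. *Cd63* was at 0.95, 0.99 and 1.20 FPKM in the other NCD-fed mice and at 12.2 in mouse 182. The same library had 230.2 FPKM of macrophage markers, against 89.9 to 121.5 in the other NCD-fed WT livers, and 113.4 FPKM of fibroblast markers, the most of any liver. Without it *Cd63* (0.54, limma adjusted p = 0.0408), *Cd68* (0.59, 0.00306) and *Laptm5* (0.40, 0.0109) passed as higher on HFD. What set this library apart was not tested.

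In liver of MlklAdi-KO mice, 7 of the 40 genes rose and 6 fell, where 11.9% of the 13149 genes tested rose and 10.3% fell, and the median was 0.04 (all genes 0.00). Both genotypes shared 6 rising genes (*Ctsf*, *Ctso*, *Lamp1*, *Mcoln1*, *Tfeb* and *Tpp1*) and 4 falling genes (*Gaa*, *Gm2a*, *Npc2* and *Tfe3*). The share of all genes called in both genotypes is not given here. *Gm2a* was at 52.5, 47.2, 46.6 and 46.6 FPKM in NCD-fed mice 166, 179, 197 and 199 and at 28.7, 26.4, 24.9, 30.4 and 32.0 FPKM in HFD-fed mice 151, 152, 153, 156 and 157 (-0.74 ± 0.08, limma adjusted p = 0.000328). *Tfe3* was at 4.38, 4.19, 4.99 and 4.53 FPKM on NCD and at 2.95, 3.83, 2.86, 2.79 and 3.02 FPKM on HFD (-0.44 ± 0.08, limma adjusted p = 0.00575). Neither gene overlapped between diets. *Tfeb* was at 1.98, 1.5, 2.52 and 1.75 FPKM on NCD and at 2.89, 2.67, 2.40, 3.23 and 2.82 FPKM on HFD with an overlap (0.38 ± 0.11, limma adjusted p = 0.029), and it did not pass without mouse 166, 179, 199, 151, 156 or 157.

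*Atp6v0c* rose (0.17) and *Cd63* (-0.74) and *Atp6v1h* (-0.46) fell in MlklAdi-KO liver and did not pass in WT liver (0.09, -0.13 and -0.07). *Atp6v0c* was lost when any 1 of the 9 mice was left out, *Cd63* without mouse 166, 179, 199, 151, 156 or 157 and *Atp6v1h* without mouse 179, 152, 156 or 157. Of the shared calls, *Tpp1* (0.27) was lost without mouse 166 and *Lamp1* (0.29) without mouse 199. HFD-fed mouse 152 stood apart here, with *Ctss* at 47.4 FPKM against 9.01 to 14.5 in the other 4 mice, *Cd68* at 14.8 against 3.38 to 4.69 and *Laptm5* at 11.8 against 2.54 to 4.39. Its macrophage marker sum was 264.6 FPKM, against 79.2 to 116.2 in the others. Without this mouse *Atp6v0c* (limma, adjusted p = 0.0647) and *Atp6v1h* (0.0546) no longer passed, *Asah1* (-0.49) and *Lipa* (-0.37) passed as lower and *Smpd1* (0.21) as higher on HFD.

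**Figure D4:**
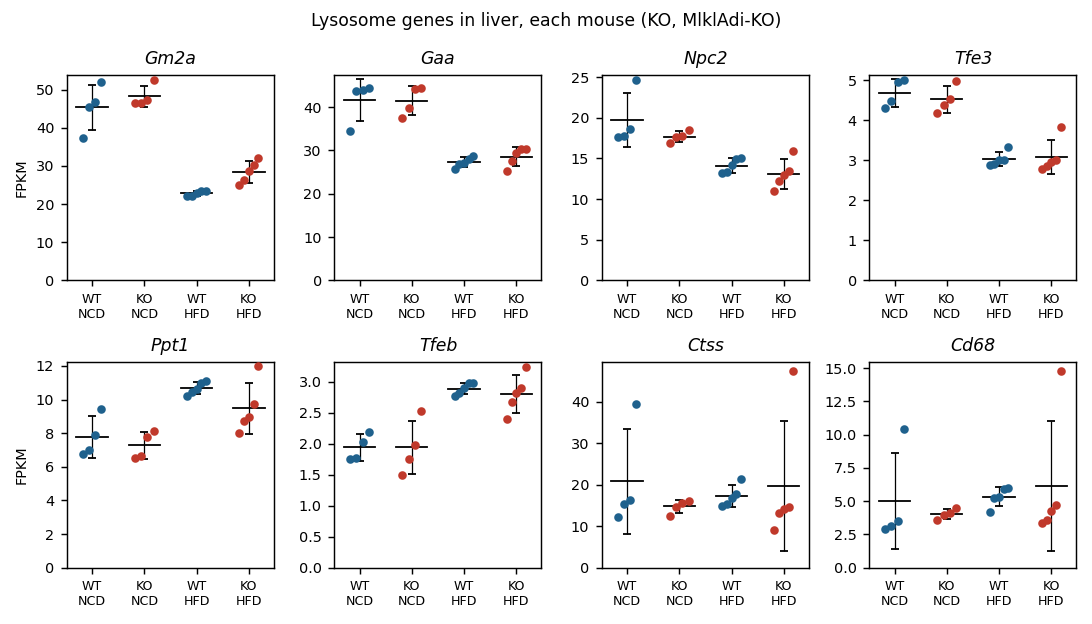
FPKM in liver (axes from 0) for 8 lysosome genes, 1 point per mouse, in WT and MlklAdi-KO mice on NCD (4 mice each) and HFD (5 mice each), with the group mean as a line and bars of 1 SD. *Gm2a*, *Gaa*, *Npc2* and *Tfe3* are lower on HFD in both genotypes, and 1 WT mouse on NCD and 1 MlklAdi-KO mouse on HFD stand far above the rest in *Ctss* (39.6 and 47.4) and *Cd68* (10.4 and 14.8).

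Between genotypes on HFD, none of the 40 genes passed in liver with limma or edgeR, and 26 of 13215 genes did with limma (0.197%). At an unadjusted p below 0.05 there were 4 of 40, where 12.6% of all genes were. Without MlklAdi-KO mouse 152 there were 14 of 40 and 17.5% of all genes, and again none passed. Of the 26 of all genes that passed with limma over all mice, 65.4% were higher in MlklAdi-KO mice, against 42.9% of 28 on the TPM scale. DESeq2 called 1 of the 40, *Gm2a*, and 256 of all genes, so this count is not read as a result about the lysosome genes. The median log2 fold change was 0.01 over the lysosome genes. *Gm2a* was at 22.1 to 23.5 FPKM in the 5 WT mice and at 24.9 to 32.0 FPKM in the 5 MlklAdi-KO mice, which did not overlap. It differed by 0.30 ± 0.07 (limma, adjusted p = 0.112; edgeR 0.0865; DESeq2 0.00325), with a two-sided exact permutation p of 0.00794, the smallest that 5 against 5 mice allow. *Cd63* was at 2.20, 3.20, 1.68, 1.62 and 1.45 FPKM in WT and at 0.65, 1.88, 1.18, 0.89 and 0.55 FPKM in MlklAdi-KO mice, with mouse 152 in the WT range (-0.59 ± 0.19, limma adjusted p = 0.267, exact permutation p = 0.0317). *Atp6v1a* was at 11.5, 12.1, 10.8, 12.2 and 11.5 FPKM in WT and at 9.76, 10.8, 11.0, 10.3 and 10.5 FPKM in MlklAdi-KO mice (-0.14 ± 0.05, limma adjusted p = 0.29, exact permutation p = 0.0238). *Tfeb* (-0.03), *Tfe3* (0.02) and *Mitf* (0.01) were close to 0, and each changed sign in at least 1 alternative.

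On NCD, none of the 40 genes passed between genotypes in liver with limma, edgeR or DESeq2, and 1 of 13193 genes passed with limma (0.00758%). None of the 40 had an unadjusted p below 0.05 with limma and 1 did with edgeR and DESeq2 (*Atp6v1h*), where 4.35% of all genes did with limma. Without WT mouse 182, 3 of 40 and 5.66% of all genes did, and *Cd63* (0.69, limma adjusted p = 0.58), *Cd68* (0.27, 0.754) and *Asah1* (0.21, 0.872) did not pass. *Atp6v1h* was at 7.94, 9.54, 6.34 and 6.94 FPKM in WT and at 8.23, 10.4, 13.7 and 8.62 FPKM in MlklAdi-KO mice (0.36 ± 0.17, limma adjusted p = 0.996, exact permutation p = 0.114). *Psap* was at 252.6, 237.1, 300.5 and 244.8 FPKM in WT and at 238.4, 219.9, 241.6 and 224.4 FPKM in MlklAdi-KO mice (-0.16 ± 0.09, adjusted p = 0.996, exact permutation p = 0.0857). *Ctsc* was at 15.2, 15.1, 13.9 and 12.1 FPKM in WT and at 17.8, 19.1, 15.9 and 12.8 FPKM in MlklAdi-KO mice (0.20 ± 0.13, adjusted p = 0.996, exact permutation p = 0.2). All 3 genes overlapped between genotypes. *Tfeb* (-0.01), *Tfe3* (-0.04) and *Mitf* (-0.05) differed by less than their standard errors of 0.11, 0.07 and 0.11. The interaction of diet with genotype in liver passed for none of the 40 genes with limma, edgeR or DESeq2 (2 at an unadjusted p below 0.05 with limma, where 6.12% of all genes were), and for 2 of 13248 genes with limma (0.0151%).

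The tissues differed in how much of each lysosome gene they expressed. In NCD-fed WT visWAT the highest levels were *Psap* (446.8 ± 60.9 FPKM, SD, n = 4), *Ctsd* (404.8, with mouse 182 at 802.5), *Ctsb* (227.4) and *Lamp1* (174.2), and in liver *Lamp1* (291.8), *Psap* (258.8), *Ctsz* (155.2) and *Ctsb* (128.3). In both tissues *Mitf* was the lowest of the 40, with 1.46 and 0.70 FPKM. On NCD, 23 of 40 genes had a higher mean in visWAT than in liver, with a median ratio of 1.30, and on HFD 34 of 40 did, with a median ratio of 2.26. The FPKM of visWAT libraries were computed with a library size of 1.01 to 1.40 times their read total, and those of liver libraries with 0.737 to 0.812 times theirs. Taken per length and per read instead, 32 genes were higher in visWAT on NCD (median ratio 2.01) and 37 on HFD (4.0). Without mice 182 and 183 the count on NCD was 23 as with all mice, with a median ratio of 1.32. *Lipa* went from 0.12 times its liver level on NCD to 1.12 times on HFD (0.19 and 1.98 per read). *Ctss* was at 0.95 times its liver level on NCD, at 1.40 times without mouse 182 and at 1.45 times per read, and at 26.5 times on HFD. *Ctsh*, *Npc1* and *Lamp2* were higher in liver on both diets on either scale, with ratios on HFD of 0.52, 0.32 and 0.40 in FPKM and 0.92, 0.57 and 0.70 per read. *Ctso*, *Mcoln1* and *Lamp1* were higher in liver on both diets in FPKM but not per read. Their ratios on HFD were 0.57, 0.84 and 0.90 in FPKM and 1.01, 1.49 and 1.59 per read. On NCD they were 1.35, 1.48 and 0.92 per read, so *Lamp1* was higher in liver there on either scale. RNA of visWAT and liver was extracted with different reagents, so tissue and extraction cannot be told apart in these levels.

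A direct test asked whether the diet effect differed between visWAT and liver of WT mice. It passed for 33 of the 40 genes, 32 with a larger rise in visWAT and *Ctso* with a smaller one (-0.52), where 21.8% and 18.2% of the 14746 genes tested passed in these directions. The median difference was 1.35 over the lysosome genes and -0.00 over all genes. It reached 4.57 ± 0.34 for *Ctss* (limma, adjusted p = 3.36e-08), 4.56 ± 0.31 for *Ctsk* (1.1e-08), 4.42 ± 0.36 for *Cd68* (8.57e-08) and 3.03 ± 0.20 for *Lipa* (9.71e-09). *Ctsc*, *Ctsf*, *Smpd1*, *Ppt1*, *Cd63*, *Mcoln1* and *Atp6v1h* did not pass. *Cd63* (1.45 ± 0.58, limma adjusted p = 0.0579) passed with edgeR (adjusted p = 0.0442), with DESeq2 (0.0147), on the TPM scale (0.0418) and without mouse 165, 182 or 183, and *Atp6v1h* passed without mouse 182. On the TPM scale the median of all genes in this test shifted by 0.39, and the share of called genes with a larger rise in visWAT went from 54.5% to 87.5%.

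**Figure D5:**
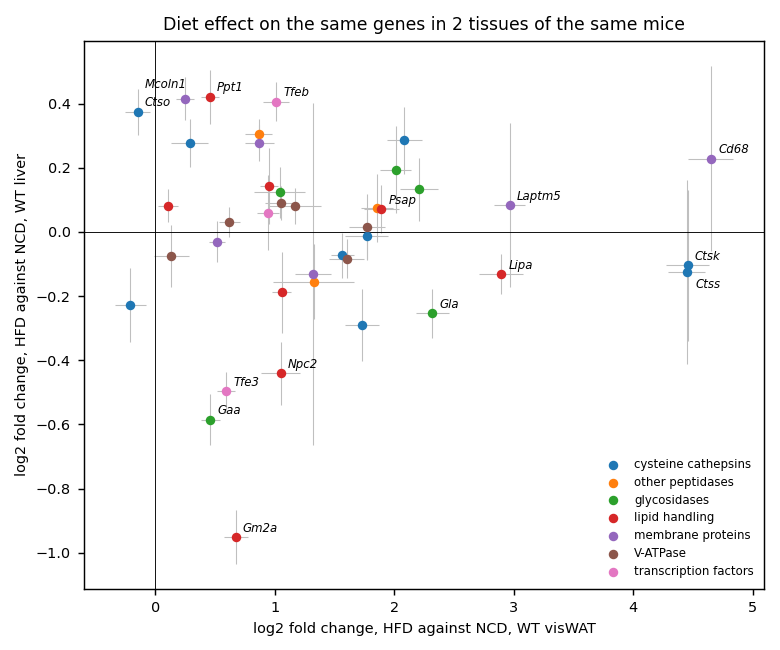
Log2 fold change of each lysosome gene on the log2(FPKM + 1) scale, HFD against NCD, in WT visWAT (horizontal) and WT liver (vertical), coloured by role, with bars of 1 standard error. Most genes lie far to the right and near 0 vertically, *Gm2a* (0.67 in visWAT and -0.95 in liver), *Gaa*, *Npc2* and *Tfe3* lie in the lower right, and *Tfeb* (1.01 and 0.41) in the upper right.

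Of the genes that rose in WT visWAT, 5 also rose in WT liver (*Lamp1*, *Mcoln1*, *Ppt1*, *Tfeb* and *Tpp1*), 5 fell there (*Gaa*, *Gla*, *Gm2a*, *Npc2* and *Tfe3*) and 25 did not pass. Over all genes tested in WT liver 13.2% rose and 12.1% fell, and both counts are near these shares. For the 5 that fell in liver the difference between tissues was 1.05 for *Gaa*, 2.57 for *Gla*, 1.62 for *Gm2a*, 1.49 for *Npc2* and 1.09 for *Tfe3*. They were picked by their calls in the same libraries, so this difference is no independent support. Without mice 182 and 183 in both tissues, 33 genes had a larger rise in visWAT and *Ctso* a smaller one. Of all genes, 3644 and 3122 passed in these directions, against 3214 and 2687 with all mice.

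Further lysosome genes outside the 40 were counted in the same fits, from lists drawn up by function with earlier results of these data known. Their counts are therefore no independent support of those above. In WT visWAT, where 21.9% of all genes rose and 15.8% fell, 19 of 23 other acid hydrolases rose on HFD and none fell (median 0.85), led by the asparaginyl endopeptidase *Lgmn* (3.21), the acid nuclease *Dnase2a* (2.01) and the carboxypeptidase *Scpep1* (1.85). Of 12 other V-ATPase subunits 9 rose (median 0.63), with *Atp6v0d2* (5.58), *Tcirg1* (2.31) and *Atp6ap2* (1.05) in front. Of 17 other membrane proteins and transporters 11 rose and 1 fell, with the glycoprotein *Gpnmb* (6.49), the metal transporter *Slc11a1* (2.88) and the channel *Tpcn2* (2.10) changing most. *Gpnmb* is also on the list of lipid-associated macrophage markers. Both tested cathepsin inhibitors rose (*Cstb* 1.91, *Cst3* 0.64).

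Genes that act around the lysosome were counted in the same way, beside the same 21.9% and 15.8% of all genes. Of 7 genes that sort enzymes to lysosomes 4 rose, with the mannose-6-phosphate receptor *Igf2r* (1.03) and the uncovering enzyme *Nagpa* (0.99), and the sorting receptor *Sort1* fell (-0.94). Of 14 genes of the Ragulator, Rag and mTORC1 group 4 rose, led by *Fnip2* (1.23), and of 12 autophagy genes 4 rose, among them *Uvrag* (0.61) and the cargo receptor *Sqstm1* (0.58). None of these 2 lists had a member that fell. In MlklAdi-KO visWAT the counts that rose were 15 of 23 acid hydrolases (1 fell), 10 of 12 V-ATPase subunits, 11 of 17 membrane proteins, 7 of 13 Ragulator, Rag and mTORC1 genes and 8 of 12 autophagy genes, each beside the same 23.3% of all genes.

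In WT liver, where 13.2% of all genes rose and 12.1% fell, members of the same lists went both ways. Of 23 other acid hydrolases 6 rose, such as the phospholipase *Pla2g15* (0.77), and 2 fell, with *Scpep1* at -0.85. Of 16 other membrane proteins and transporters 3 rose (*Tpcn1* 0.95), of 12 V-ATPase subunits 2 rose and 1 fell, and of 7 sorting genes 2 rose and 3 fell, with *Sort1* at -1.27. None of these lists had a gene past the threshold between genotypes in either tissue or diet with limma.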

How the data were processed

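Total RNA from visWAT and liver of 18 mice was sequenced after poly(A) selection as paired-end reads on a NovaSeq instrument, with 1 library per mouse and tissue (36 libraries). Per the study's methods and the labels, the authors trimmed reads with fastp, aligned them with HISAT2 to mm39 and counted them per gene with featureCounts 1.5.0-p3. Strandedness, the annotation release and the treatment of reads that map to several places were not given in the sources used here. The gene table deposited by the authors holds FPKM per library, used here for all levels and for the main tests, and the gene length of each gene. Its library size contains a scaling between libraries beyond the number of reads. Tables of the authors' own comparisons hold raw read counts per library as deposited, used here only to find the library size behind FPKM, and fold changes, p-values and pathway results, which were not used. In them 72 further columns of per-sample values were left out.

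The 40 genes and all gene lists were chosen with earlier results of these data known. Each comparison was fitted over all genes with a mean of at least 0.5 FPKM in its libraries, on log2(FPKM + 1), with limma 3.58.1 in R 4.3.3 (empirical Bayes with a trend) and Benjamini-Hochberg adjustment over all genes tested, at a threshold of 0.05. A fold change on this scale understates the change of low genes. Diet and genotype comparisons used only their 2 groups, interactions all groups concerned. Group differences of single genes were also tested by two-sided exact permutation tests of FPKM. The fits were tested on simulated data. Dividing FPKM by the value of 1 read gave whole reads for 100% of values (tolerance 0.02 reads), so edgeR 4.0.16 (quasi-likelihood) and DESeq2 1.42.0 were run on those reads. The remaining fits varied the pseudocount (0.1), the filter (none, or a mean of at least 1 FPKM) and the scale (TPM), or were made with all groups of a tissue, without single mice, without WT NCD mice 182 and 183, and with a replicate block. The replicate block without mice 182 and 183, and the levels per read and without single mice in the comparison of tissues, were chosen after seeing the data.

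Values in every mouse are given for the 2 genes per role with the largest change past the threshold in WT visWAT, the 5 with the largest change in WT liver, the 3 with the smallest p where no gene passed between genotypes, and *Tfeb*, *Tfe3* and *Mitf*. Other lists are given with at most 3 genes each by size of change. Any other gene named was chosen after its values were seen. Statements that groups did not overlap describe the values of single genes, and the share of all genes without overlap is not given. The labels give the same mouse for visWAT and liver. The correlation of deviations from the group means between both tissues of a mouse, over 14746 genes, was -0.051 to 0.058 in 9 WT mice. Mice are separate animals, and depth of 20875463 to 30322171 reads on genes limits the precision of the lowest genes only.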

Additional observations from a re-analysis of the deposited data

Results flagged for a closer look

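In 7 of 78 groups of 4 or 5 mice examined (8.97%), 1 mouse lay apart from the others by Dixon's criterion at 95%, where chance gives about 1 in 20. The genes examined were those chosen by rule for values in every mouse, in the groups of the comparison that chose them. *Ctss*, *Cd68* and *Cd63* in NCD-fed WT liver, where mouse 182 was far above the others, were not examined. Neither were *Ctss* and *Cd68* in HFD-fed MlklAdi-KO liver, where mouse 152 stood apart. In WT visWAT on NCD, *Ctsd* was 802.5 FPKM in mouse 182 and 232.7 to 326.6 in the others. *Gla* was 1.42 FPKM in mouse 183 and 1.83 to 1.91 in the others, and *Gusb* was 17.6 FPKM in mouse 183 and 10.7 to 11.8 in the others. In WT liver on NCD, mouse 182 had *Gaa* at 34.5 FPKM (others 43.6 to 44.5) and *Npc2* at 24.6 (others 17.6 to 18.7). *Tfe3* in liver on HFD was 3.83 FPKM in MlklAdi-KO mouse 152 (others 2.79 to 3.02) and 3.33 FPKM in WT mouse 154 (others 2.89 to 3.01).

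The diet effect differed between visWAT and liver of WT mice for 33 of the 40 genes (limma interaction with Benjamini-Hochberg adjustment). Genes that rose in visWAT and fell in liver differed by 1.05 on the log2 scale for *Gaa* (adjusted p = 1.54e-06), 2.57 for *Gla* (4.5e-09), 1.62 for *Gm2a* (7.34e-08), 1.49 for *Npc2* (1.33e-05) and 1.09 for *Tfe3* (1.38e-07). These genes were picked by their opposite calls in the same libraries, so the p-values are no independent support.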

How the results depend on the processing

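Of 339 alternative values of counts and medians over the 40 genes, 334 stayed within the limits set for the same result and 5 moved. The median log2 fold change in WT visWAT on HFD was 1.23 with a pseudocount of 0.1 and 1.61 on the TPM scale. Between genotypes on the TPM scale it was 0.46 in NCD-fed visWAT and -0.0585 in HFD-fed liver. DESeq2 called 1 of the 40 genes between genotypes in HFD-fed liver, *Gm2a* (0.33), beside 256 of all genes. The causes were not tested.

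The genes chosen by rule for values in every mouse, each in the comparison that chose it, had 849 alternative values. Of these, 825 kept direction and side of the threshold and 7 lost the call (*Tfeb* in MlklAdi-KO liver on HFD, 0.31 to 0.39). The call was gained in 1 (*Gm2a*), and 16 changed sign, all of them genes that did not pass. Lost calls of other genes, such as *Mcoln1* in WT visWAT and *Gla* in WT liver, are given above and are not among these values. *Mitf* in WT liver on HFD ranged from -0.0086 to 0.124 with 1 mouse left out and was below 0 without mouse 182 or 162 (-0.0008). Between genotypes in HFD-fed liver, these ranges were -0.0744 to 0.0048 for *Tfeb* (above 0 without mouse 153), -0.0447 to 0.0431 for *Tfe3* (below 0 without mouse 152) and -0.0552 to 0.0693 for *Mitf* (below 0 without mouse 155, 164 at -0.0065, or 153 at -0.044), and on the TPM scale *Tfe3* was -0.0398 and *Mitf* -0.0242. Between genotypes on NCD, *Tfeb* was -0.0159 in visWAT without mice 182 and 183. In liver it was 0.0013 with edgeR, 0.0045 with DESeq2 and -0.0993 to 0.0649 with 1 mouse left out, above 0 without mouse 180 (0.0322), 183 (0.0067), 179 or 199 (0.0191).

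With 1 mouse left out at a time, 34 to 36 genes were called in WT visWAT (median 1.03 to 1.17), 31 to 35 in MlklAdi-KO visWAT (0.81 to 0.98), 10 to 15 in WT liver and 9 to 14 in MlklAdi-KO liver. Between genotypes none was called, with medians of -0.39 to -0.21 in HFD-fed and 0.06 to 0.13 in NCD-fed visWAT. In the test of the diet effect between tissues 33 to 35 were called. With the mouse as a replicate block, this test called 33 genes, as without it, and 5365 of all genes against 5901. Without mice 182 and 183 the replicate block gave 34 with a larger rise in visWAT and 1 with a smaller one, where 3410 and 2874 of all genes passed. The shares of all genes called with 1 mouse left out are not given here.

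DESeq2 called more of all genes than limma between genotypes, with 157 against 3 in HFD-fed visWAT, 8 against 0 in NCD-fed visWAT, 256 against 26 in HFD-fed liver and 19 against 1 in NCD-fed liver. In the interaction of diet with genotype it called 20 against 0 in visWAT and 60 against 2 in liver. In HFD-fed visWAT 9 passed with all groups in the fit, 5 on the TPM scale and 2 at a mean of at least 1 FPKM. In NCD-fed visWAT 2 passed with no filter, 1 with all groups in the fit and 3 without mice 182 and 183. In NCD-fed liver 3 passed with no filter and with all groups, in HFD-fed liver 7 with no filter, and 4 in the liver interaction at a mean of at least 1 FPKM.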
